A study of Rattus norvegicus with 244 samples.

Results

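The genes described here encode the subunits of the proteasome and its cofactors, measured on arrays in 2 regions of the rat brain. Members were all genes with a single annotated symbol made of Psma, Psmb, Psmc, Psmd, Psme, Psmf or Psmg and a number, leaving out the interferon-induced catalytic subunits Psmb8 and Psmb9. This rule took 45 of the 10969 genes with a single symbol. Psmc3ip and Psme3ip1 matched by name but encode no subunit and were kept apart. The remaining 43 comprised 14 genes of the core particle (7 Psma and 7 Psmb), 20 of the regulatory particle (6 Psmc and 14 Psmd), 4 Psme, Psmf1 and 4 Psmg. Each gene was represented by its brightest probe set (on average over all arrays), and 6 Psm probe sets annotated to several symbols were left out.

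The proteasome degrades proteins that carry chains of ubiquitin. Its barrel-shaped core particle has outer rings of alpha subunits (Psma), which gate the entrance, and inner rings of beta subunits (Psmb), some of which cut the peptide chain. The regulatory particle caps the barrel: a ring of ATPases (Psmc) unfolds the substrate and threads it inward, and non-ATPase subunits (Psmd) bind ubiquitin, remove it and hold the complex together. Psme genes encode activators that can cap the core in place of the regulatory particle, Psmf1 encodes the inhibitor PI31, and Psmg genes encode chaperones that assemble the core. Neurons depend on the proteasome for the turnover of synaptic and axonal proteins.

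The 244 arrays of 3 types, A, B and C, came from 84 samples, 41 of raphe, a group of brainstem nuclei with serotonin neurons that reach down to the cord, and 43 of somatomotor cortex, where corticospinal neurons lie. In each region 4 samples came from naive rats. Another 12 came from rats with a laminectomy without cord injury, called sham here, and 24 from rats with a moderate spinal cord injury. They were taken 4 h or 24 h, 7, 14 or 28 d, or 3 months after the operation, with 2 sham and 4 injured samples per time. On type A the raphe had 11 sham samples, with 1 at 3 months, and on type C it had 3 naive samples. Sham tissue was also taken at 30 min (1 raphe and 2 cortex samples, on type A alone) and at 72 h (1 cortex sample), times without injured samples. The labels used here give no strain, age or sex and leave unsaid whether each sample was a separate animal, so p-values measure the spread between these samples, which may be technical. The source of sham and naive raphe was labelled raphe magno, and that of injured raphe only raphe. Any difference of injured raphe from sham or naive raphe therefore cannot be told apart from a difference in what was dissected. Titles and descriptions disagree on the time of 2 injured cortex samples (24 h, replicates 1 and 2, type A) and of the raphe sham sample at 30 min, and the titles were followed.

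The deposited values are intensities of 1 probe set each, scaled by the authors so that the 2% trimmed mean of every array was close to 800, and array medians ran from 186 to 411. Of the 43 members, 41 lay in the upper part of the signal distribution on most arrays, with a median percentile above 60. Psmc6 (median percentile 53.9) was dimmer, and Psmd7 (38.0) was above the 40th percentile on 34 of 80 arrays. All 43 passed the filter on low signal. Differences were tested with limma on log2(value + 32), adjusted over all probe sets of the 3 array types, and a member was called at an adjusted p under 0.05. The array types hold different probe sets, so each member was compared with itself across samples and never with another member.

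There were 5 samples that stood apart from the rest of their region, and the main counts are also given without them. Values of arrays in the next sentences are medians over the arrays of a sample. In replicate 1 of injured raphe at 4 h, the actin 3'/5' ratio was 46.2, against 1.25 to 2.65 in the other raphe samples. The 5th percentile of signal was 57.0 in replicate 2 of cortex sham at 14 d and 31.3 in replicate 2 of injured cortex at 7 d, against 9.56 to 20.2 in the other cortex samples. Replicate 1 of raphe sham at 3 months had a mean level of forebrain cortex markers 1.14 above the mean of all samples (log2), where the other raphe samples lay between -2.82 and -1.84. Replicate 1 of cortex sham at 3 months had a mean level of brainstem and serotonin markers 0.69 above it, where the other cortex samples lay between -1.26 and -0.38. These levels go against the region labels of both samples. In the raphe sample the brainstem and serotonin markers, at -0.82, went the same way. In the cortex sample the forebrain cortex markers were at 0.36, between the ranges of the regions. Without the 5 samples these ranges were -2.82 to -1.90 in the raphe and 1.71 to 2.75 in the cortex.

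Proteasome transcripts were higher in the raphe than in the cortex. The largest differences were those of the ubiquitin receptor gene Psmd4 and the ATPase genes Psmc5 and Psmc1, and 4 of the 7 alpha subunits of the core did not pass the test. Averaged over the 13 conditions that both regions share, 32 of the 43 members were higher in the raphe and 1, Psmb10, was lower, with a median difference of 0.32 on the log2 scale. Over all probe sets tested, 26.1% were higher in the raphe and 27.0% lower, and among genes taken as 1 probe set each, 31.8% were higher and 25.2% lower with a median of 0.02. Without the 5 samples standing apart the members again numbered 32 higher and 1 lower, against 28.7% and 28.5% of probe sets.

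**Figure D1:**
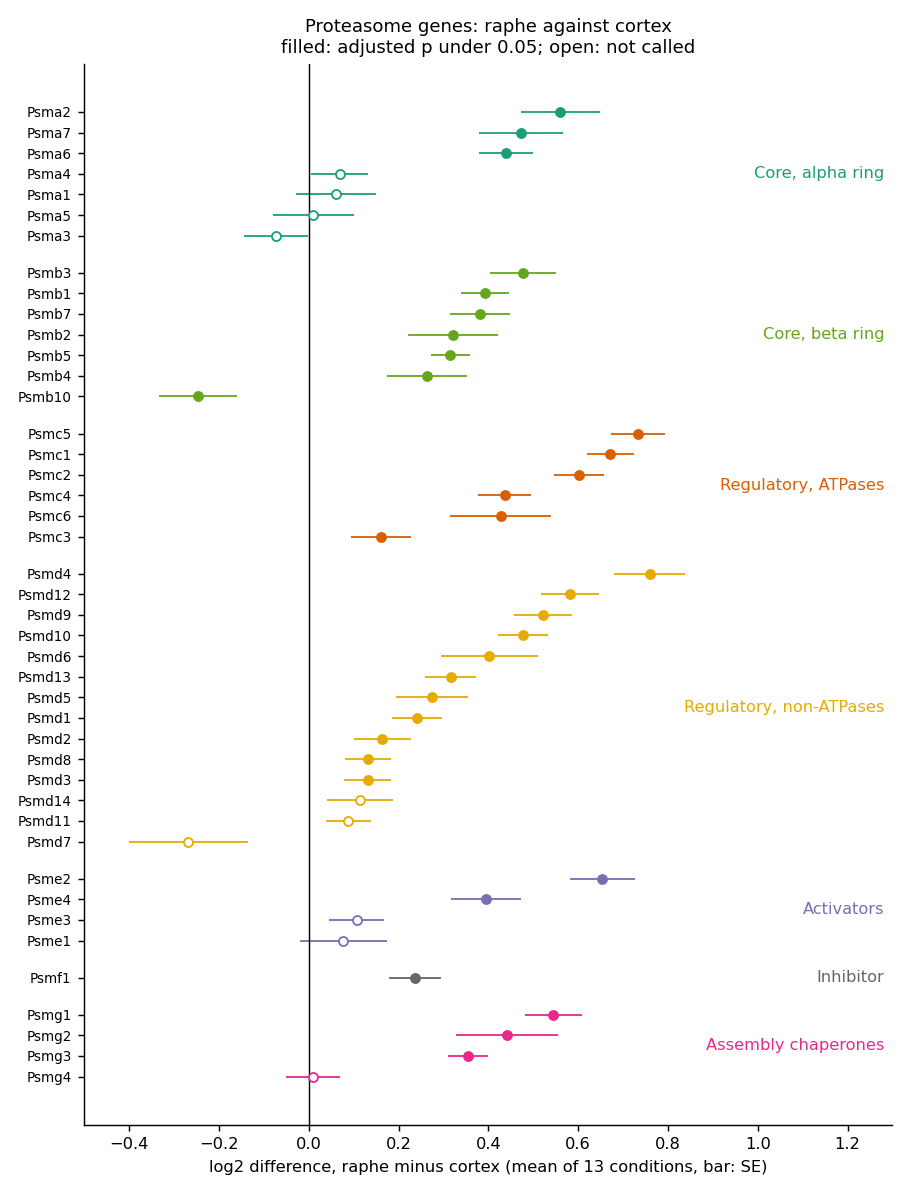
Difference between raphe and cortex for each of the 43 members, as the mean log2 difference over 13 shared conditions with its standard error, grouped by role; filled points passed an adjusted p of 0.05. All 6 ATPase genes lie to the right of 0 and are filled, whereas 4 of the 7 alpha subunit genes are open and close to 0, and Psmb10 is the filled point to the left.

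All 6 ATPase genes were higher in the raphe, by 0.16 to 0.73 on the log2 scale. In naive animals Psmc5, an ATPase of the base of the regulatory particle, had signals of 5507, 5578, 5676 and 5799 in the 4 raphe samples and 3553, 2909, 3597 and 3169 in the 4 cortex samples. Its neighbour in the ring, Psmc1, had signals of 4398, 4053, 4145 and 3974 in naive raphe and 2713, 2403, 2697 and 2229 in naive cortex. For Psmc2 the signals were 2626, 2885, 2737 and 2836 in naive raphe and 1704, 1839, 1285 and 1810 in naive cortex. In each of these genes every naive raphe sample was above every naive cortex sample. The log2 difference over 13 conditions was 0.73 ± 0.06 (SE, 39 raphe and 40 cortex samples, adjusted p = 3.0e-16) for Psmc5, which is 1.66-fold. It was 0.67 ± 0.05 for Psmc1 (adjusted p = 3.3e-17) and 0.60 ± 0.06 for Psmc2 (adjusted p = 2.6e-14). Psmc4 (0.44 ± 0.06) and Psmc6 (0.43 ± 0.11) were also higher in the raphe. For Psmc3 the difference was 0.16 ± 0.07 (adjusted p = 0.039), and without the 5 samples it was 0.11 and no longer passed (adjusted p = 0.14). Psmc6 was also uneven between conditions, with the raphe higher in 8 of 13 and differences from -0.40 to 1.43.

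The 250 bases before the gene start, from RefSeq (build GRCr8), are printed for 4 of the 5 members with the largest differences. Those of Psmb10, the only member called lower in the raphe, are printed with them. Capitals mark matches, on either strand, to 3 short motifs that occur in many promoters of constantly active genes: the CCAAT box (CCAAT), the GC box (GGGCGG) and an ETS-type motif (CCGGAAG). They lie at chr10:91687303-91687552 (plus strand, Psmc5), chr6:125122247-125122496 (plus strand, Psmc1), chr2:185297202-185297451 (minus strand, Psmd4), chr4:14162391-14162640 (minus strand, Psmc2) and chr19:50743293-50743542 (minus strand, Psmb10), each ending at the base before the gene's start and written 5′ to 3′ on the strand of the gene.
Psmc5: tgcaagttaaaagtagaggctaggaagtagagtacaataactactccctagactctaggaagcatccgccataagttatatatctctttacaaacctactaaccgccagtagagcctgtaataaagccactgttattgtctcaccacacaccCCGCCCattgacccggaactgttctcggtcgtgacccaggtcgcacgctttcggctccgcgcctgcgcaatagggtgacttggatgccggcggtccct
Psmc1: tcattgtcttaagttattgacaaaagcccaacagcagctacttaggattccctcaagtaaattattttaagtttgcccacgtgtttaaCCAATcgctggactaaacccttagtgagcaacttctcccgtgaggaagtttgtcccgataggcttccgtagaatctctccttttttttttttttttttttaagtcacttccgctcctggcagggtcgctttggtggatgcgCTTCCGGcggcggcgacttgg
Psmd4: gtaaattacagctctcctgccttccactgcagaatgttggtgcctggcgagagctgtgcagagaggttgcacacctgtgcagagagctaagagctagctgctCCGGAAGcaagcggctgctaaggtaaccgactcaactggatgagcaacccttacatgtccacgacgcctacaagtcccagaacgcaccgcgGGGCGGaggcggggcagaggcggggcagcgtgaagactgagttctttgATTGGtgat
Psmc2: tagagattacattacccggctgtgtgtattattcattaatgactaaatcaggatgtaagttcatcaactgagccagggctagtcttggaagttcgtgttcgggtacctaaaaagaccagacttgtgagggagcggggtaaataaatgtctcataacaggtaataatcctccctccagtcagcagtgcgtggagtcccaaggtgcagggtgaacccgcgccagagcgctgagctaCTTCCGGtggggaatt
Psmb10: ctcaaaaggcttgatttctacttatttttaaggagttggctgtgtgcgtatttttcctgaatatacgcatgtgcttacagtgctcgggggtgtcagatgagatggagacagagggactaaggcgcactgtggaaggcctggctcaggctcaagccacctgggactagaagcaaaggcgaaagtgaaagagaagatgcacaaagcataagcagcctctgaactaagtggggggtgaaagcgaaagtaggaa
The Psmc5 window holds 1 GC box, that of Psmc1 a CCAAT box and an ETS motif, that of Psmd4 all 3 motifs and that of Psmc2 an ETS motif, while none of the 3 occurs in the Psmb10 window. Promoters were matched for 39 members, all but Psma7, Psmd6, Psmd12 and Psmd14. The GC box occurred in 27 of the 39 (69.2%) and in 30.5% of all 33469 rat promoters of this length. The CCAAT box occurred in 19 (48.7%, against 34.0% of all) and the ETS motif in 11 (28.2%, against 7.27%). The antioxidant response element TGACNNNGC occurred in 6 (15.4%, against 10.1%). The background of all promoters was not limited to genes on the arrays, and shares among those genes alone are not given here. None of these motifs contains another, and a match describes the sequence alone. Among the 29 matched members called higher in the raphe, 21 had a GC box, 13 a CCAAT box, 9 an ETS motif and 5 the antioxidant response element. Whether any motif bears on the region difference was not tested.

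Among the non-ATPase genes of the regulatory particle, 11 of 14 were higher in the raphe and none was lower, with or without the 5 samples. Psmd4, which encodes the ubiquitin receptor Rpn10, had signals of 5275, 6444, 7059 and 6771 in naive raphe and 3686, 3649, 3738 and 4376 in naive cortex. Psmd12, a subunit of the lid, had signals of 6064, 6802, 6980 and 6017 in naive raphe and 3668, 3555, 3535 and 3316 in naive cortex. Neither gene's naive groups overlapped. Over 13 conditions the log2 difference was 0.76 ± 0.08 for Psmd4 (adjusted p = 1.1e-12), the largest of the 43, and 0.58 ± 0.06 for Psmd12 (adjusted p = 1.0e-11). The other probe sets of Psmd4 gave less, 0.54 and 0.49 on type A and 0.13 on type C (adjusted p = 0.091), so its rank rests on the brightest probe set. Psmd9 and Psmd10, chaperones that help to assemble the ATPase ring, were higher by 0.52 ± 0.07 and 0.48 ± 0.06. The scaffold genes Psmd1 (0.24 ± 0.06) and Psmd2 (0.16 ± 0.06) were higher as well, and dimmer probe sets gave 0.51 and 0.18 for Psmd1 and 0.31 for Psmd2. Psmd14, the lid enzyme that removes ubiquitin chains, had a difference of 0.12 (95% interval -0.03 to 0.26) and Psmd11 one of 0.09 (-0.01 to 0.19). Psmd7, the dim member, had a difference of -0.27 (-0.53 to -0.003, adjusted p = 0.084).

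**Figure D2:**
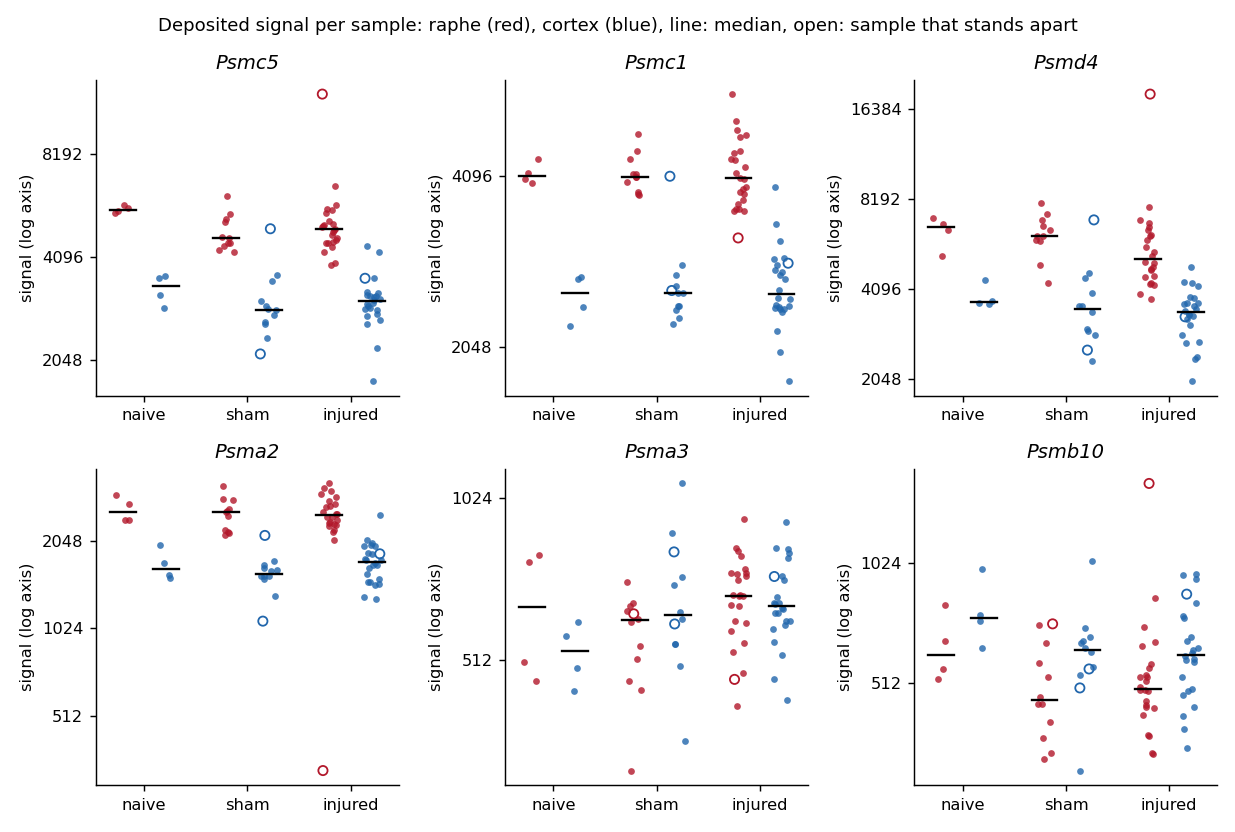
Signal of 6 members in every sample of the shared conditions (log axis), raphe in red and cortex in blue, by treatment; open points are the samples that stand apart and lines mark group medians. Psmc5, Psmc1 and Psmd4 lie higher in the raphe in naive, sham and injured samples alike, Psma3 overlaps between the regions, and Psmb10 lies lower in the raphe.

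Over all samples of the shared conditions, Psmc5 ranged from 3884 through a median of 4940 to 12244 in 39 raphe samples and from 1778 through 2997 to 4952 in 40 cortex samples. The 12244 belongs to the raphe sample with the high actin ratio. Without the 5 samples, 32 of 38 raphe samples lay above the highest of 37 cortex samples (4414). For Psmc1 the same held for 26 of 38 raphe samples, and for Psmd4 for 27 of 38. Every one of the 39 raphe samples lay above the cortex median in Psmc5, Psmc1, Psmc2 and Psmd4.

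In the core particle 9 of 14 members were higher in the raphe and 1 was lower, with a median of 0.32, and the counts were the same without the 5 samples. The beta subunits carried most of this: Psmb1, Psmb2, Psmb3, Psmb4, Psmb5 and Psmb7 were all higher, by 0.26 to 0.48. Psmb5, which carries the chymotrypsin-like activity, differed by 0.31 ± 0.04 (adjusted p = 7.5e-09), and Psmb7, with the trypsin-like activity, by 0.38 ± 0.07 (adjusted p = 1.9e-06). Among the alpha subunits only Psma2, Psma6 and Psma7 passed the test, at 0.56 ± 0.09, 0.44 ± 0.06 and 0.47 ± 0.09, and the median of the 7 was 0.07. For the other four alpha subunits the 95% intervals were 0.06 (-0.12 to 0.24) in Psma1, -0.07 (-0.21 to 0.07) in Psma3, 0.07 (-0.06 to 0.19) in Psma4 and 0.01 (-0.17 to 0.19) in Psma5. Psma3 shows what no clear difference looked like: its naive signals were 508, 802, 780 and 469 in raphe and 567, 449, 602 and 496 in cortex, and the groups overlapped.

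Psmb10, the interferon-induced counterpart of Psmb7, went the other way. Its signals were 804, 553, 650 and 524 in naive raphe and 985, 756, 626 and 733 in naive cortex, with some overlap. The difference over 13 conditions was -0.25 ± 0.09 (adjusted p = 0.014) and without the 5 samples -0.32 (adjusted p = 0.0011), and the raphe was higher in 2 of 13 conditions. Psmb9, a companion subunit outside the rule, was higher in the raphe by 0.41 ± 0.14 (adjusted p = 0.011).

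Among the cofactors, the activator gene Psme2 had signals of 3435, 3517, 3719 and 3855 in naive raphe and 2001, 2366, 2263 and 2036 in naive cortex, with no overlap. It was higher in the raphe by 0.65 ± 0.07 over 13 conditions (adjusted p = 9.9e-12), and Psme4, the nuclear activator PA200, by 0.40 ± 0.08. Psme1 and Psme3, at 0.08 (95% interval -0.12 to 0.27) and 0.11 (-0.01 to 0.23), did not pass. Psmf1 was higher by 0.24 ± 0.06. Of the assembly chaperones, Psmg1 (0.54 ± 0.06), Psmg2 (0.44 ± 0.11) and Psmg3 (0.35 ± 0.05) were higher, while Psmg4 had a difference of 0.01 (-0.11 to 0.13).

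The region difference was also taken within naive, sham and injured samples, which share no sample but were tested with 1 shared spread. In naive animals 10 members were higher in the raphe and none lower, where 6.65% of all probe sets (8.61% of genes) were higher and 7.59% lower. The naive groups did not overlap for 19 members with the raphe higher and for 1 with the raphe lower, against 12.1% and 11.1% of all probe sets. In sham animals 24 were higher and none lower (15.7% of probe sets and 19.9% of genes higher, 16.9% of probe sets lower), and in injured animals 26 were higher and none lower (24.3% and 28.9% higher, 24.0% lower). The medians of the members were 0.32, 0.38 and 0.30. Without the 5 samples 19, 29 and 30 members were higher, against 10.2%, 19.6% and 27.2% of probe sets, and 0, 1 and 1 were lower, against 10.3%, 19.4% and 26.3%. There were 9 members called higher in all 3 groups of samples: Psmb7, Psmc1, Psmc2, Psmc5, Psmd4, Psmd10, Psmd12, Psme2 and Psmg1. Among all genes tested 701 of 9409 were.

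Condition by condition, the median over the members ran from 0.20 in injured animals at 14 d to 0.48 in sham animals at 14 d, with 1 exception. In sham animals at 3 months it was 0.05, and 0.22 without the 2 samples there that stand apart. The value for sham animals at 14 d includes 1 of the 5 samples and was 0.32 without it, so that the highest was then 0.42, in sham animals at 7 d. The median of all probe sets stayed between -0.09 and 0.04. The raphe was higher in all 13 conditions for 9 members (Psma6, Psmb1, Psmc1, Psmc2, Psmc4, Psmc5, Psmd4, Psmd9 and Psme2), in 12 for 13 members, in 9 to 11 for 14, in 7 to 8 for 4 and in 6 or fewer for 3. In single conditions 45.2% to 54.3% of all probe sets were higher in the raphe. How many of them were higher in all 13 was not computed, so these counts have no background beside them.

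**Figure D3:**
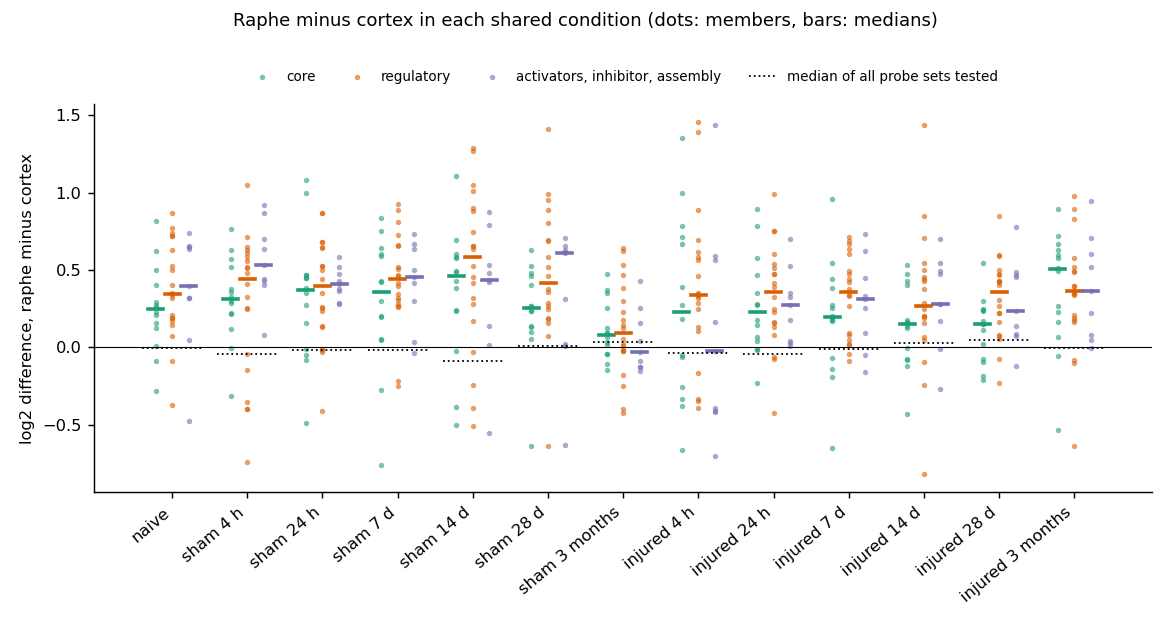
Log2 difference between raphe and cortex in each of the 13 shared conditions; points are members, bars their medians and dotted lines the median of all probe sets. The medians of the members lie between 0.20 and 0.48 except in sham animals at 3 months, where the median was 0.05.

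The regulatory particle and the core were set side by side. The 20 regulatory genes were taken by symbol and include assembly chaperones such as Psmd9 and Psmd10, both called higher. The assembly chaperones of the core (Psmg) are not among its 14 genes. The regulatory particle had 17 of 20 members higher and none lower with a median of 0.36, against 9 of 14 higher and 1 lower with a median of 0.32 in the core, and the difference between the particles was not tested. The regulatory count was 16 without the 5 samples. The array types hold different members of each. On type A 8 of 8 regulatory genes (median 0.52) and 8 of 10 core genes (0.36) were higher, on type B 4 of 6 and 0 of 2, and on type C 5 of 6 and 1 of 2. Over all genes 27.2% were higher on type A, 35.2% on type B and 33.1% on type C. With the 5 samples left out the type A regulatory count was 7 of 8 and the others were the same. For each sample the log2 deviations from the mean of each member were also averaged. In the regulatory particle, without the 5 samples, these averages reached down to 0.10 in the raphe and up to -0.03 in the cortex, so the regions did not overlap. In the core they reached down to 0.02 in the raphe and up to 0.08 in the cortex, so they overlapped. With all samples, the regulatory average minus the core average had a mean of 0.07 ± 0.07 (SD, n = 4) in naive, 0.06 ± 0.10 (n = 12) in sham and 0.05 ± 0.05 (n = 24) in injured raphe. In the cortex it was -0.07 ± 0.05, -0.03 ± 0.10 and -0.06 ± 0.10 in the same groups. Without the 5 samples the mean was 0.07 in sham (n = 11) and 0.05 in injured raphe (n = 23). In the cortex it was then -0.05 (n = 10) and -0.06 (n = 23).

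**Figure D4:**
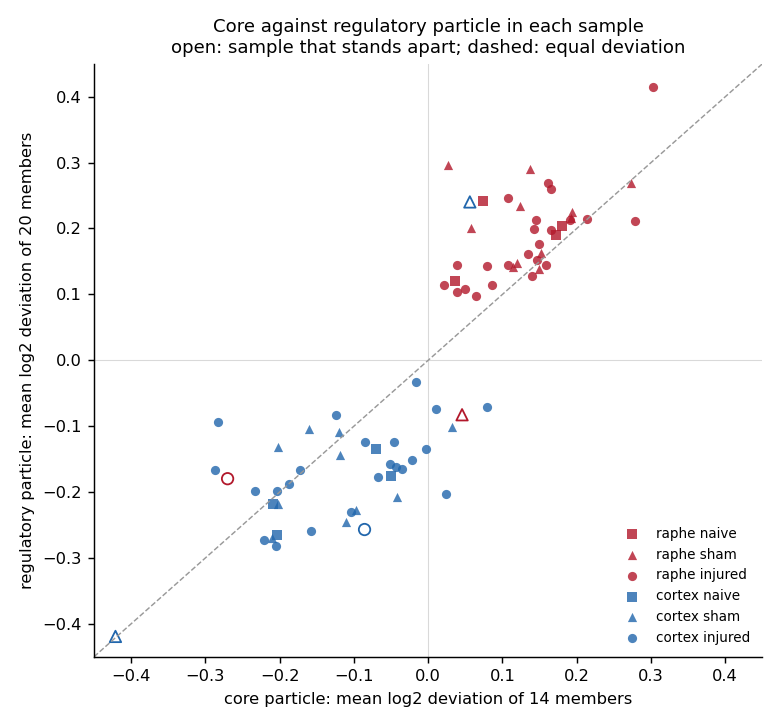
Mean log2 deviation of the 14 core genes (horizontal axis) and the 20 regulatory genes (vertical axis) in each sample, over the genes its arrays hold. Raphe is in red and cortex in blue, with open points for the samples that stand apart and a dashed line of equal deviation. Apart from the open points, raphe samples lie at 0.10 or above and cortex samples at -0.03 or below on the vertical axis.

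Within a region, correlations between members measured on the same arrays were low and depended on the array type. On type A, after removal of the condition means and over 37 samples a region without the 5 standing apart, the median correlation was 0.29 between regulatory genes and 0.07 between core genes in the raphe. In the cortex it was 0.21 and 0.23, and over all probe sets it was 0.01 in either region. Between regulatory genes it was -0.04 in the raphe and -0.03 in the cortex on type B, and 0.11 and 0.07 on type C, against 0.00 over all probe sets in each case. With all samples the raphe medians on type A were -0.11 and -0.03 over 38 samples, and single pairs ran from -0.80 to 0.93. These pairs share the same libraries and scaling.

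Several members were measured by more than 1 probe set, and not all gave the same picture. Of the 29 other tested probe sets of members called higher, 26 had a positive difference, 20 were called higher and 1 was called lower. That 1 belongs to Psma7, where the brighter of 2 type A probe sets gave 0.47 and the other, from the same source sequence, -0.12 (adjusted p = 0.045), while a type C probe set gave 0.28 (adjusted p = 1.4e-07). A type B and another type C probe set of Psma7 gave -0.08 and -0.14 and were not called, so the 3 negative probe sets of the 29 all belong to this gene. Psme1 was not called by its brightest probe set but was higher by 0.41 and 0.60 with 2 others, while a further probe set gave -0.11 and was not called. Psma5 was not called by its brightest probe set either, and dimmer type A probe sets gave 0.14 (adjusted p = 0.046) and -0.01. For Psmd11 a dim probe set gave -0.48 (adjusted p = 0.0039). Cross-hybridization of probe sets with related sequences was not tested.

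Other genes of the ubiquitin system were higher or lower in the raphe in shares near those of all genes. In 6 lists, of the ubiquitin genes themselves (0 on the arrays under a single symbol), activating, conjugating and ligating enzymes, deubiquitinases and proteasome-associated factors, 94 genes were tested, and 25 were higher (26.6%) and 22 lower (23.4%) in the raphe, with a median of 0.02, where 31.8% and 25.2% of all genes were. The counts were 29 and 22 without the 5 samples. Ubiquitin-conjugating enzymes numbered 5 higher and 6 lower of 28, among the lower ones Ube2b (-0.49 ± 0.07) and Ube2k (-0.35 ± 0.06). Ligases numbered 6 higher and 9 lower of 25, with Fbxo2, which binds glycoproteins, at 1.34 ± 0.06 and Nedd4l, a regulator of ion channels, at -1.52 ± 0.11. Deubiquitinases numbered 3 higher and 4 lower of 11, with Usp2 at -0.59 ± 0.06, and activating enzymes 3 and 1 of 7, with Uba6 at 1.00 ± 0.09. The list closest to the proteasome itself had 8 higher (34.8%) and 2 lower (8.70%) of 23, including the unfolding ATPase Vcp (0.41 ± 0.06), its cofactor Ubxn1 (0.32 ± 0.05), Ngly1 (0.34 ± 0.07) and the core maturation factor Pomp (0.40 ± 0.09). In a separate list of immunoproteasome and peptide transport genes 2 of 5 were higher, B2m (0.52 ± 0.06) and Psmb9.

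Other large complexes were set beside the proteasome as counts, to be read against the same shares of all genes. Genes of the respiratory chain numbered 56 higher and 3 lower of 74 with a median of 0.36, and the cytosolic chaperonin 5 and 0 of 7 with a median of 0.44. COP9 signalosome and eIF3 subunits, whose complexes resemble the proteasome lid in architecture, numbered 11 and 1 of 21 (median 0.19). Cytosolic ribosomal proteins numbered 13 higher and 12 lower of 58, with a median of 0.002.

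The cell makeup of the dissected regions differed as well, and in bulk RNA fewer cells of a type and less RNA per cell cannot be told apart. All 8 oligodendrocyte and myelin markers were higher in the raphe (median 1.23), and their mean deviation ran from 0.44 to 0.92 in the raphe and from -0.98 to -0.25 in the cortex without the 5 samples. Of the brainstem and serotonin markers 8 of 10 were higher and 1 lower (ranges 0.58 to 1.19 and -1.26 to -0.38). Of the forebrain cortex markers 8 of 8 were lower (-2.82 to -1.90 and 1.71 to 2.75). Neuronal markers numbered 5 higher and 3 lower of 10 (0.03 to 0.71 and -0.84 to 0.04), astrocyte markers 3 and 2 of 7 (-0.43 to 0.42 and -0.76 to 0.28) and microglial markers 3 and 0 of 9 (-0.41 to 0.30 and -0.38 to 0.27). Blood markers numbered 1 and 1 of 4, meningeal markers 0 and 4 of 8 and choroid plexus markers 4 and 0 of 5. The part of cell makeup in the proteasome difference was not tested.

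None of the 43 members passed the test for spinal cord injury as a mean over the times in either region. Over the 6 times, 0 of 43 members were called in injured against sham raphe, where 0.946% of all probe sets were, and 0 of 43 in the cortex, where 0.133% were. At an unadjusted p under 0.05 there were 3 of 43 members in each region, where 15.1% of all probe sets in the raphe and 11.4% in the cortex were, and the medians over the members were -0.05 in the raphe and 0.02 in the cortex. In the raphe the smallest p belonged to the inhibitor gene Psmf1, with signals from 1372 through a median of 1705 to 2244 in 12 sham samples and from 457 through 1464 to 1827 in 24 injured samples. The groups overlapped, and the log2 difference was -0.29 ± 0.10 (adjusted p = 0.15). The lowest injured value is from the sample with the high actin ratio, and without the 5 samples the difference was -0.23 and passed the test (adjusted p = 0.018), as did 4.73% of all probe sets. Psmd10 (0.18 ± 0.08), Psma3 (0.23 ± 0.11), Psmb5 (-0.16 ± 0.08) and Psmd1 (-0.13 ± 0.09) followed. The differences were positive at 6 of 6 times for 1 member of 43, Psmd10 (0.08 to 0.37), and at 0 of 6 for 1, Psmd1. In 12 members they were positive at 3 times, and the share among all probe sets was not computed.

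In the cortex the smallest p belonged to Psmd7, with signals from 145 through 322 to 498 in 12 sham samples and from 84 through 192 to 559 in 24 injured samples. These groups overlapped widely, and the difference was -0.51 ± 0.19 (adjusted p = 0.28). Psmc4 (0.21 ± 0.08), Psmb3 (0.20 ± 0.10), Psmd10 (0.17 ± 0.09) and Psmb1 (0.15 ± 0.08) came next. Over all members the 95% intervals of the injury effect stayed within -0.68 and 0.46 in the raphe and -0.89 and 0.40 in the cortex. The test of whether the injury effect differed between raphe and cortex called 0 of 43 (0.0206% of all probe sets), with 2 at an unadjusted p under 0.05 (8.49% of all probe sets), Psmd1 (-0.26 ± 0.12, adjusted p = 0.54) and Psmc4 (-0.25 ± 0.13).

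At single times 0 members were called in the raphe, where the share of all probe sets called was 0.150% at 4 h, 0.00534% at 24 h, 0.801% at 7 d, 0.0374% at 14 d, 0.00% at 28 d and 0.614% at 3 months. Members with an unadjusted p under 0.05 numbered 11 at 4 h, 2 at 24 h, 5 at 7 d, 4 at 14 d, 0 at 28 d and 3 at 3 months. Of all probe sets 13.7%, 4.36%, 12.8%, 6.45%, 6.80% and 10.7% had such a p at the same times. With the 5 samples left out the members numbered 7, 3, 9, 7, 5 and 4, against 7.94% to 20.2% of all probe sets. At 7 d Psmd4 had signals of 7962 and 6968 in the 2 sham samples and 5266, 3943, 4998 and 4240 in the 4 injured samples. Psmf1 had 2244 and 2090 against 1827, 1341, 1456 and 1523. Neither pair of groups overlapped. The log2 differences were -0.70 and -0.50 (adjusted p = 0.36 and 0.40), and they passed when the 5 samples, none of which was taken at 7 d in the raphe, were left out of the shared spread (adjusted p = 0.048 and 0.023, with 4.71% of all probe sets called).

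In the cortex the share of all probe sets called was 0.0160% at 4 h, 0.0426% at 24 h, 0.368% at 7 d, 1.81% at 14 d, 0.00% at 28 d and 2.47% at 3 months, and members were called only at 3 months. There Psmf1 had signals of 1958 and 1781 in the sham samples and 1188, 1244, 1167 and 988 in the injured samples. Psmd2, a scaffold of the base, had 5555 and 5699 against 3779, 4015, 4413 and 3761. Both sham samples were above all 4 injured ones in either gene. The differences were -0.69 ± 0.18 (adjusted p = 0.041) and -0.49 ± 0.13 (adjusted p = 0.043). Replicate 1 of these sham samples is one of the 5 standing apart, and without the 5 the differences were -0.63 and -0.51 but did not pass (adjusted p = 0.36 and 0.29). At 14 d no member was called, and Psma7 was nearest at 0.80 ± 0.22 (adjusted p = 0.051; 0.47 without the 5 samples). Leaving out replicate 1 of cortex sham at 14 d, so that the sample with the raised 5th percentile stood alone, raised the count over the 6 times from 2 to 11 (9 higher and 2 lower). A change over the 6 times among injured samples alone was called for 0 members in the raphe (0.486% of all probe sets) and 0 in the cortex (1.10%), with 7 and 11 at an unadjusted p under 0.05, against 18.3% and 15.5% of all probe sets. Without the 5 samples Psmd10 passed in the raphe (adjusted p = 0.020), as did 4.40% of all probe sets.

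**Figure D5:**
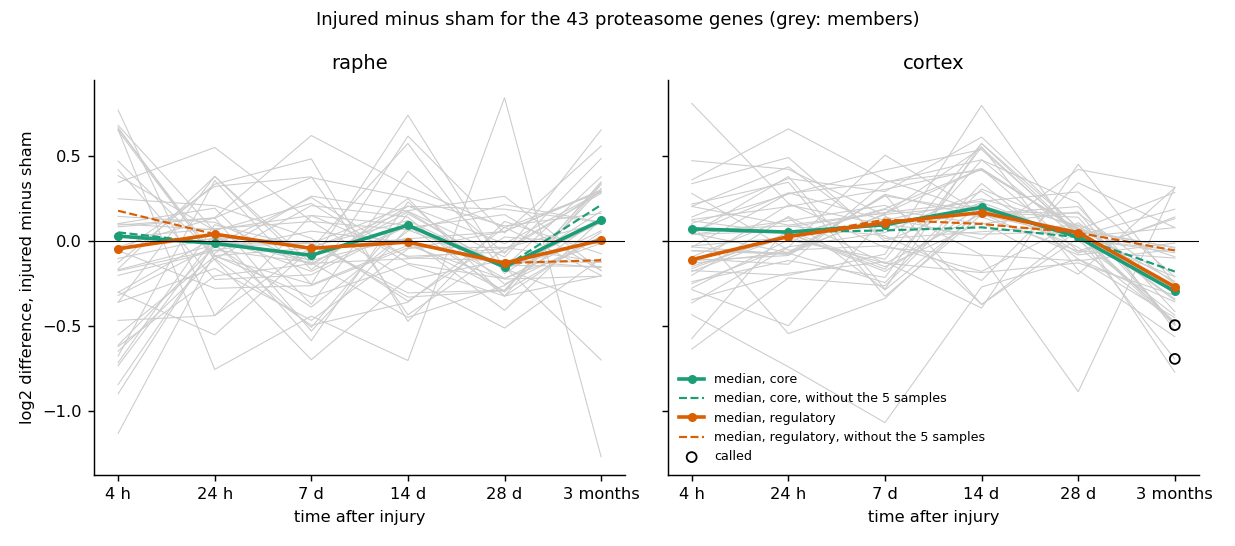
Injured minus sham log2 difference at the 6 times in raphe and cortex; grey lines are members, coloured lines the medians of core and regulatory genes, dashed lines the medians without the samples that stand apart, and rings mark called members. The 2 rings are Psmf1 and Psmd2 in the cortex at 3 months, where the median over all members was -0.25. Replicate 1 of the sham samples there stands apart, with a mean log2 deviation of all members of 0.14. Replicate 2 had -0.13, and the injured samples ran from -0.24 to -0.18.

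Outside the members, the induced subunit gene Psmb8 was higher in injured than in sham raphe by 0.57 ± 0.11 (adjusted p = 0.0095), and the shuttle factor gene Ubqln4 was lower by -0.67 ± 0.12 (adjusted p = 0.0043). Ubqln4 was the 1 gene called among 93 of the ubiquitin lists and Psmb8 the 1 among 5 of the immunoproteasome list, and in the cortex 0 of 93 and 0 of 5 were called. Over all genes taken as 1 probe set each, 78 of 9213 were called in the raphe and 5 of 9129 in the cortex.

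Against naive animals a few members differed, and the sham and injured comparisons share the same naive samples. In the raphe Psma1 had naive signals of 402, 536, 392 and 280. It ranged from 487 through a median of 618 to 871 in 11 sham samples and from 232 through 760 to 1020 in 24 injured samples, mostly above the naive range. The injured minus naive difference was 0.76 ± 0.21 (adjusted p = 0.043, the only call among 43, against 3.05% of all probe sets), and the sham minus naive difference was 0.72 ± 0.23 (adjusted p = 0.12, no member called, against 1.35%). In the cortex Psma1 had differences of 0.62 ± 0.18 (injured; adjusted p = 0.055) and 0.54 ± 0.19 (sham; adjusted p = 0.18). As a mean over its probe sets the raphe value was -0.08, so the rise was seen by the brighter probe set alone. The call was also lost with quantile normalization (adjusted p = 0.089), with no filter (0.053) and with adjustment within each array type (0.068), and it was lost in 16 of the 28 fits that left out 1 of the samples compared, and 8 members were called without replicate 1 of injured raphe at 4 h. Without the 5 samples 9 members were called in injured raphe (4 higher, 5 lower), against 11.2% of all probe sets.

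In the cortex 3 members were called in injured against naive samples, where 2.00% of all probe sets were. Psmd2 ranged from 2915 to 3361 in 4 naive samples, from 3166 through 4042 to 5699 in 12 sham and from 3596 through 4042 to 4694 in 24 injured samples, so that every injured sample exceeded every naive one. Its differences were 0.34 ± 0.08 (injured, adjusted p = 0.031) and 0.37 ± 0.09 (sham, adjusted p = 0.049), the latter the only call there, against 0.490% of all probe sets. Psmd3, a lid subunit, was higher by 0.41 ± 0.11 and Psmc3 lower by -0.55 ± 0.15 in injured cortex (both adjusted p = 0.041). None of the 3 calls, nor that of Psmd2 in sham samples, passed when any 1 of the 4 naive samples was left out. Psmc3 ranged from 2781 to 3574 in naive, from 1126 to 3202 in sham and from 1378 to 2764 in injured cortex.

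The injured raphe sample at 4 h with the high actin ratio split the members. In it Psma7 (29614), Psmd4 (18318), Psmc5 (12244) and Psma6 (11961) had signals above every other raphe sample, whereas Psma2 (332), Psma5 (516) and Psmb4 (839) were below every other raphe sample. The mean deviation of all members in this sample was -0.28, against 0.06 to 0.30 in the other injured raphe samples. The sham samples without an injured counterpart lay with their region: the mean deviation was 0.16 in the raphe sample at 30 min, and -0.25, -0.17 and -0.12 in the cortex samples at 30 min and 72 h. At 30 min it covers only the 19 members on type A.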

How the data were processed

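Oligonucleotide arrays of 3 types gave 1 intensity per probe set, and the deposited intensities had been scaled per array by the authors, as the values show. The sources used here name no upstream software. Probe sets were named through the platform annotation and rat RefSeq. Control probe sets were left out. Then log2(value + 32) was fitted with limma 3.58.1 in R 4.3.3, one fit per array type with a mean for each condition and a shared spread. Tests covered probe sets above the 40th percentile on 4 or more arrays of a region. P-values are two-sided, with Benjamini-Hochberg adjustment over all probe sets of the 3 types and a threshold of 0.05. The number of arrays limits the precision. The fit was tested on simulated data. The members and gene lists were chosen with earlier results of these data known. Any member could be named, and per comparison the called members by smallest p, up to 12, or else the 5 with the smallest p, came first. Other genes were up to 4 called per list. Within a region, the median correlation of same-numbered samples was near 0 (0.020 in cortex and -0.002 in raphe), and the replicate number was no block in the fit. Correlations over 0.1 were found in 40 of 224 same-numbered cortex pairs and 52 of 588 others. In the raphe they were found in 16 of 174 and 50 of 482. Whether same-numbered raphe and cortex samples were paired was not tested. Tables and figures were made with Python 3.11.15, pandas 2.3.3 and matplotlib 3.10.9.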

Additional observations from a re-analysis of the deposited data

Results flagged for a closer look

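In 60 groups of 4 samples (the sample means of the members by condition, and the naive groups of called members), 5 had a sample far from the other three, where chance flags about 1 in 20 groups. Replicate 4 of injured cortex at 24 h had a mean log2 deviation of all members of -0.212, against -0.108 to -0.0929 in the other samples. Replicate 4 of naive raphe had 0.141, against 0.205 to 0.217. For the regulatory particle, replicate 2 of injured raphe at 7 d had 0.0973, against 0.198 to 0.215. In naive raphe the Psmd3 signal of replicate 2 was 1840, against 1365 to 1424. In naive cortex the Psmd4 signal of replicate 4 was 4376, against 3649 to 3738, and it remained below the lowest naive raphe signal of 5275. The injury effect differed between the regions for 0 of 43 members.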

How the results depend on the processing

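The counts of members called between raphe and cortex stayed within 1.5 times of the values given above (10 naive, 24 sham, 26 injured, 33 over 13 conditions) under all alternatives, except that the naive count was 18 with array weights and 19 without the 5 samples. Leaving out 1 sample gave 8 to 11, 20 to 25, 24 to 31 and 31 to 35. With the replicate number as a block the counts were 10, 22, 26 and 30, and the block made the cortex single-time count 1 and the sham against naive cortex count 0. The small counts of the other comparisons were less stable, and the cause was not tested. Those named in turn are injury in raphe (0) and cortex (0), single times in raphe (0) and cortex (2), time courses in raphe (0) and cortex (0), sham against naive in raphe (0) and cortex (1), and injured against naive in raphe (1) and cortex (3). With no filter the cortex single-time, cortex sham against naive, and both injured against naive counts were 0. A 60th percentile filter made injured against naive raphe 2. A pseudocount of 1 made sham against naive cortex 0. Array weights gave 2 for injury in raphe, 1 and 0 for single times, 2 and 5 for time courses, 2 and 0 for sham against naive, and 8 and 7 for injured against naive. Without the 5 samples there were 1 for injury in raphe, 2 and 0 for single times, 1 for the raphe time course, 4 and 2 for sham against naive, and 9 and 6 for injured against naive. For injured against naive raphe the share of all probe sets called was then 11.2%, against 3.05% in the main fit. Shares of all probe sets under the other alternatives are not given here. Adjustment within each array type gave 1 for single times in cortex and 2 for injured against naive raphe, both lower, where the 1 above was Psma1, higher. Quantile normalization gave 1 there, also lower and not Psma1. The mean over the probe sets of a gene gave 1 for single times in raphe and 0 for sham against naive cortex and for injured against naive raphe. Leaving out 1 sample gave 0 to 2 and 0 to 1 for injury, 0 to 1 and 0 to 11 for single times, 0 to 1 and 0 for time courses, 0 and 0 to 2 for sham against naive, 0 to 8 and 0 to 5 for injured against naive, and 0 for the difference between regions. Samples behind upper ends included replicate 1 of injured raphe at 4 h (2 for injury, 1 for single times, 1 for the time course and 8 against naive, all in raphe) and replicate 1 of cortex sham at 14 d (1 for injury, 11 for single times and 2 for sham against naive, all in cortex). Without replicate 2 of cortex sham at 3 months 5 members passed at single times. Differences turned sign for Psma5 with quantile normalization (-0.010) and Psme1 without the 5 samples (-0.031). With the mean over probe sets they turned for Psma1 in injured against naive raphe (-0.076) and for Psmd11 between injured regions (-0.039). Psmd11 also turned over 13 conditions with that mean, and there it was called lower in the raphe (-0.12, adjusted p = 0.028). The members then numbered 32 higher and 2 lower. Leaving out 1 sample, the difference over 13 conditions ran from -0.024 to 0.041 in Psmg4 and from -0.011 to 0.068 in Psma5, neither of which was called.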
